A study of Mus musculus with 8 samples.

Results

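The genes described here encode the nuclear-encoded subunits of the 5 complexes of oxidative phosphorylation in BV-2 cells, an immortalised mouse microglial line. They were chosen by gene symbol alone, as every gene on the array whose symbol begins with a name of a subunit of complexes I to V, without the assembly factors named Ndufaf and Sdhaf. This gave 86 genes, covered by 115 probes, of 36799 genes or unnamed transcripts on the array. Complex I held 38 of them, complex II 4, complex III 9, complex IV 18 and complex V 17. Where a gene had several probes, the brightest stood for it, and 83 of the 86 passed the filter on dim probes and were tested among 22460 genes.

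The study asked how HF, the hexane fraction of a mushroom, Amauroderma rugosum, alters BV-2 cells stimulated with bacterial lipopolysaccharide (LPS). It compared 4 groups of 2 arrays each, all harvested after 24 h. The control cells received neither agent, the LPS group 1 µg/mL LPS, the HF group 100 µg/mL HF, and the LPS+HF group 1 µg/mL LPS together with 100 µg/mL HF. Total RNA was hybridised in 1 colour to Agilent arrays, and the design text calls the pairs biological duplicates without saying how the cultures were separated, so p-values measure the spread between these arrays. A level below is the log2 signal of a gene's probe minus the 75th percentile of its array, and it can be compared between arrays for 1 gene but not between genes. In such bulk RNA, fewer cells expressing a gene and less of its RNA per cell cannot be told apart, and a lower level is lower relative to the array's other genes.

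Complexes I to IV form the respiratory chain of the inner mitochondrial membrane, which passes electrons from NADH and succinate to oxygen and pumps protons, and complex V, the ATP synthase, uses the proton gradient to make ATP. Most of their subunits are encoded in the nucleus, and the factors NRF1, GABP (an ETS factor) and YY1 are known activators of many of these genes. Macrophages and microglia activated by LPS are known to lean on glycolysis and to lower mitochondrial respiration.

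The promoters of some members are shown because their genes moved together in the comparison of LPS with control. Sdhb is shown as a core subunit whose promoter holds a motif searched for below. It was also among the few members that fell when HF was added to LPS. RefSeq windows of 300 bases, 250 before and 50 after the transcription start in GRCm38.p6, were matched for 69 of the 86 members by symbol. Each window was searched on both strands for the NRF1 core GCATGCGC, for the NRF1 palindrome, which is that core preceded by GC, for the ETS motif CCGGAAG and for the YY1 motif AAGATGGC. The palindrome was found in 6.76% of the members' 74 windows and in 0.971% of all 32851 windows. The core was found in 13.5% against 2.71%, the ETS motif in 23.0% against 8.86%, and the YY1 motif in 13.5% against 2.75%. A match is a description of the letters and not a bound site. The 250 bases before the start are printed 5′ to 3′ on the gene's strand, with matches in capitals. Uqcr11 (chr10:80406822-80407071, minus strand) holds the ETS motif, Sdhb (chr4:140961021-140961270, plus strand) the NRF1 core and Atp5k (chr5:108434400-108434649, minus strand) the whole palindrome, of which the core is in capitals, and Atp5k was picked for this match after its values were seen. Their 300-base windows hold further matches outside the capitals. Uqcr11 has an NRF1 core that begins 4 bases before the start, and Sdhb and Atp5k each have an ETS match after it. Cox7a1 (chr7:30183921-30184170, plus strand) and Ndufab1 (chr7:122101849-122102098, minus strand), the members with the largest falls after LPS, hold none of these letters in the stretch shown. Atp5j2 and Ndufv3 also fell with LPS, hold no match in the 250 bases before the start, and are not shown. The share of falling members with a match therefore cannot be read from the promoters printed.
Uqcr11: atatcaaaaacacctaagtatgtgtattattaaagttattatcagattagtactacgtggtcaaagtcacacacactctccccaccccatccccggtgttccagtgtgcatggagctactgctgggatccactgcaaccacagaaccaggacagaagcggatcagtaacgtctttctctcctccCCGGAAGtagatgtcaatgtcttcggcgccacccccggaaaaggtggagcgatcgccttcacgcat
Sdhb: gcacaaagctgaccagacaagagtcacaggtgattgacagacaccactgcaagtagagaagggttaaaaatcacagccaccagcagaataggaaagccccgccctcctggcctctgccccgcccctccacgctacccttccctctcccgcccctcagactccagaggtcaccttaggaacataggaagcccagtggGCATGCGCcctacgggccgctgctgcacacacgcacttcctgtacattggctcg
Atp5k: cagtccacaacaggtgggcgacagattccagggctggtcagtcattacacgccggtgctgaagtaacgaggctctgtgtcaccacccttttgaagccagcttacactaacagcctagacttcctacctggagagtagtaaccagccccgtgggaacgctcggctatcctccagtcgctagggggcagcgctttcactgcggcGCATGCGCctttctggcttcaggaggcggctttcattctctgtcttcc
Cox7a1: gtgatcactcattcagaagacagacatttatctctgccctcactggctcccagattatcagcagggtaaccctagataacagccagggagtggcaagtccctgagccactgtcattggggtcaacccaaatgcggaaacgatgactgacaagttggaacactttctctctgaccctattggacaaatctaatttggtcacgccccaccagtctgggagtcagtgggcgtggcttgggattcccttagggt
Ndufab1: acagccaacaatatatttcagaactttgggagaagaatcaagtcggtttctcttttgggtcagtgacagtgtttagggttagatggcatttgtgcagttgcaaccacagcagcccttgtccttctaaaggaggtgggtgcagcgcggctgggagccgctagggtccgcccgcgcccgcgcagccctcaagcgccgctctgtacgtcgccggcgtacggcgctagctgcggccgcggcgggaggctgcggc

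A single slide, scanned once, carried the arrays. Those without HF were in slide row 1 and those with HF in slide row 2, so HF and slide row cannot be told apart. Arrays without LPS were in slide columns 1 and 2 and those with LPS in columns 3 and 4. LPS and slide column therefore cannot be told apart either. The 75th percentile of signal was 247 to 286 without HF and 346 to 527 with HF. Control replicate 1 stood apart: the scanner marked it for evaluation, its replicate spots varied by a coefficient of variation of 48.9% against 3.77% to 8.06% on the other arrays, and 16.1% of its spots were dimmed locally by more than 4-fold. HF replicate 1 was also marked, with 0.814% of its spots so dimmed. Of the microglia and macrophage markers, 13 of 16 were above background on all arrays, including Itgam, Csf1r and Trem2. Of the markers of other cells, 1 of 8 for neurons, 2 of 6 for astrocytes and 5 of 6 for oligodendrocytes were above background on all arrays, and none of these passed in any of the 4 group comparisons as fitted.

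The uneven array reached the members directly. Control replicate 1 minus control replicate 2 ran from -3.73 to 2.63 (log2) over the 83 members, with a median of -0.06, and 17 members differed by more than 1. The dimmed zones covered 15 members, among them Ndufv1, Sdhd, Cox4i1 and Cox6c, and 13 of these 15 were over 1 apart. Dimming was judged on the background-subtracted signal and not on the processed signal used for levels. A covered member was therefore not always lower on control replicate 1: the difference ran from -3.73 to 1.05 over these 15. In the other groups the same difference ran from -0.25 to 0.26 with LPS, from -1.76 to 0.63 with HF and from -0.77 to 0.50 with LPS+HF. Ndufc2 and Sdhd, both low on HF replicate 1, were the 2 members over 1 apart with HF. A spatial correction, which subtracted each array's local deviation and dropped the dimmed spots, left the control arrays -0.42 to 0.42 apart over the 68 members still measured on both. Each comparison with control is therefore given as fitted, after this correction, and without control replicate 1. For the 15 covered members the corrected control value rests on control replicate 2 alone.

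**Figure D1:**
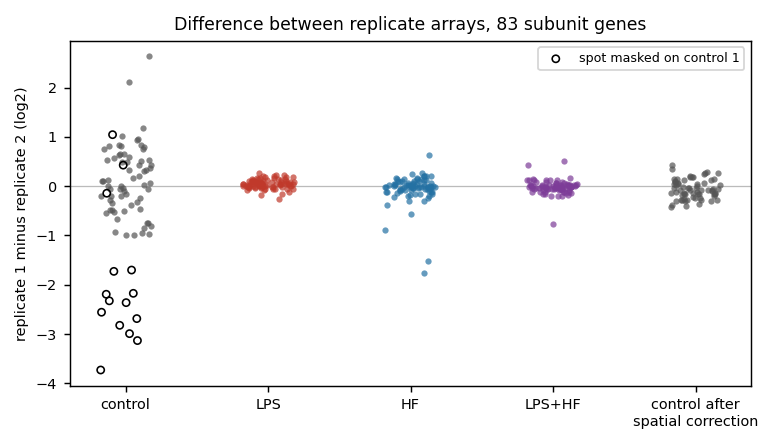
Replicate 1 minus replicate 2 (log2, vertical axis) for each member in each group, and for control after the spatial correction (horizontal axis); points are genes and open circles are spots dimmed on control replicate 1. The control pair spans -3.73 to 2.63 as measured and -0.42 to 0.42 after the correction, while the LPS pair spans -0.25 to 0.26.

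With LPS alone, some subunit genes of complexes I, III, IV and V passed as lower than in control in the fit without correction, and none as higher. As fitted, 13 of the 83 members fell and 0 rose, where 6.34% of all genes tested fell and 4.8% rose (limma, adjusted p under 0.05 over all genes). The members' median difference was -0.39, against -0.08 over all genes tested, and 63 of the 83 had a negative sign. Most of all genes tested were also negative, as their median below 0 shows. The largest fall was that of Cox7a1, a complex IV isoform known from heart and skeletal muscle, at 3.41-fold. After the spatial correction 45 members fell and Cox6a2 rose, against 16.6% and 12.9% of all genes, and without control replicate 1 the counts were 35 and 1, where 20.3% of all genes passed in either direction. The members' median was -0.41 and -0.42 in these fits.

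**Figure D2:**
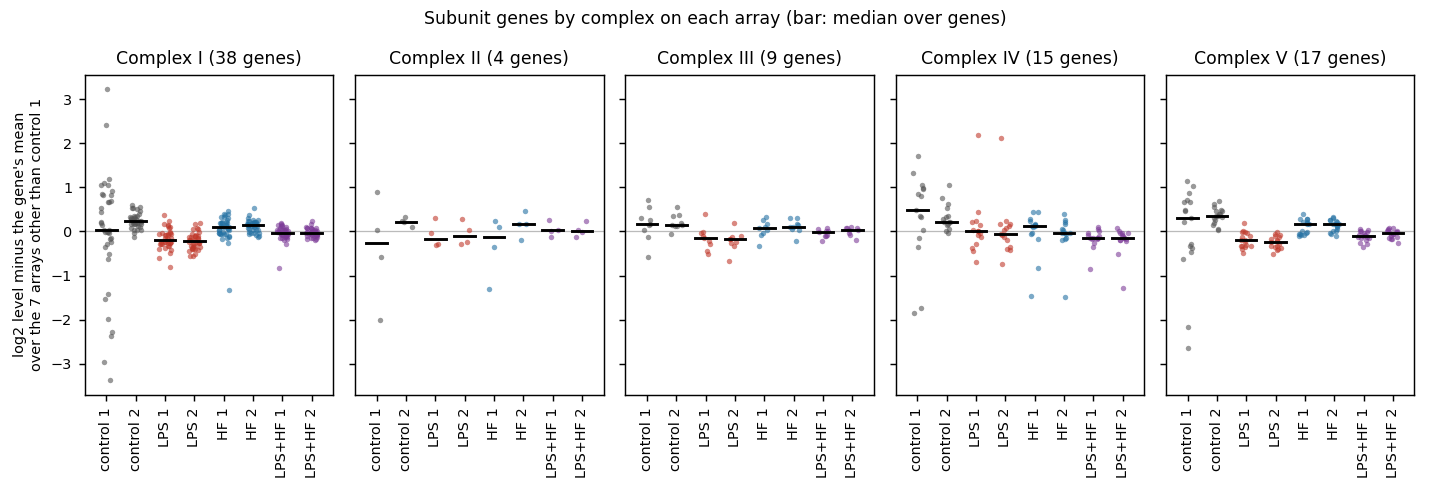
Level of each member on each array, as its log2 level minus its mean over the 7 arrays other than control replicate 1 (vertical axis), by complex; points are genes and bars their medians. In complex V the medians are 0.31 and 0.35 on the control arrays, -0.19 and -0.23 on the LPS arrays, 0.16 and 0.16 on the HF arrays and -0.09 and -0.03 on the LPS+HF arrays, and the spread of points is widest on control replicate 1.

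Complex I takes electrons from NADH. Of its 38 members 5 fell as fitted, with a median of -0.27, and 21 fell after the correction, with a median of -0.42. Ndufab1, the mitochondrial acyl carrier protein, stood at 1.72 and 1.08 in control, -0.29 and -0.04 with LPS, 0.85 and 1.06 with HF and 0.44 and 0.59 with LPS+HF. Both LPS arrays were the lowest of the 8. The LPS difference was -1.56 ± 0.24 (SE, adjusted p = 0.016), and -1.17 after the correction. Ndufv3, an accessory subunit beside the NADH-binding site, read 7.32 and 6.96 in control, 6.02 and 6.08 with LPS, 7.0 and 7.0 with HF and 6.76 and 6.61 with LPS+HF. It fell by 1.09 ± 0.17 on the log2 scale (adjusted p = 0.016), its groups with and without LPS did not overlap, and its second probe gave a difference of -1.06. The other falls were in accessory subunits of the membrane arm, Ndufb11 at -0.98, Ndufb6 at -0.91 and Ndufb5 at -0.55.

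Of the core subunits of complex I, Ndufs1, which carries iron-sulfur clusters at the NADH end, read 6.31 and 5.51 in control, 4.90 and 4.88 with LPS, 5.66 and 5.66 with HF and 5.58 and 5.57 with LPS+HF. LPS lay below all other arrays. The difference was -1.02 ± 0.26 as fitted (adjusted p = 0.061) and -0.70 ± 0.09 after the correction (adjusted p = 0.0031). Ndufv1, which binds NADH and FMN, read 3.89 and 7.02 in control and 6.78 and 6.61 with LPS; its control arrays are too far apart to place it, and the corrected difference of -0.29 did not pass. Ndufa4, long listed with complex I and later assigned to complex IV, differed by -0.25 as fitted and fell by 0.51 after the correction (adjusted p = 0.047). Its paralogue Ndufa4l2 was above background on 6 of 8 arrays and did not pass in any comparison.

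Complex II, succinate dehydrogenase, also serves the citric acid cycle. None of its 4 members passed as fitted, with a median of 0.03. After the correction Sdhc, a membrane anchor, fell by 0.51 and Sdha, the flavoprotein, by 0.41. Sdhb, the iron-sulfur subunit, read 6.76 and 7.56 in control and 7.66 and 7.62 with LPS, above both controls, and its corrected difference of 0.24 did not pass. Sdhd, the other anchor, lay in a dimmed zone of control replicate 1, at 4.35 against 6.68 on control replicate 2, and its corrected difference of -0.29 did not pass.

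Complex III passes electrons from ubiquinol to cytochrome c. As fitted, 1 of its 9 members fell, with a median of -0.39, and 5 fell after the correction. Uqcr11, a small supernumerary subunit, read 6.90 and 7.44 in control, 6.36 and 6.21 with LPS, 7.21 and 7.17 with HF and 6.77 and 6.94 with LPS+HF. The LPS arrays were below the other 6, and the difference was -0.88 ± 0.21 as fitted (adjusted p = 0.048) and -1.08 ± 0.10 after the correction. Of the core subunits, Uqcrc1 fell by 0.41 after the correction (adjusted p = 0.039), while Uqcrc2 at -0.20, the Rieske protein Uqcrfs1 at -0.26 and cytochrome c1 (Cyc1) at 0.01 did not pass.

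Complex IV, cytochrome c oxidase, held the members that differed most from one another. As fitted, 3 of its 15 tested members fell, with a median of -0.51, and after the correction 6 fell and 1 rose, with a median of -0.33. Cox7a1 read 3.39 and 3.39 in control, 1.64 and 1.6 with LPS, 2.77 and 2.74 with HF and 2.33 and 1.83 with LPS+HF. Its 4 groups did not overlap, and the LPS difference was -1.77 ± 0.19 (adjusted p = 0.0058). The widely expressed isoform Cox7a2 differed by -0.51 as fitted and fell by 0.72 after the correction (adjusted p = 0.002). Cox5b fell by 0.69 ± 0.13 (adjusted p = 0.028) and Cox7b by 0.78, whereas Cox5a, another nuclear subunit near the matrix face, read 7.69 and 7.79 in control against 7.65 and 7.73 with LPS. Cox4i1 and Cox8a, both higher on control replicate 1, did not pass at corrected differences of -0.43 and -0.26.

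Cox6a2, the heart and skeletal muscle isoform of subunit VIa, differed from most members. It read 3.63 and 2.67 in control, 4.10 and 4.03 with LPS, 0.45 and 0.41 with HF and 1.06 and 0.62 with LPS+HF. LPS stood above both controls, and the difference of 0.92 ± 0.33 did not pass as fitted (adjusted p = 0.13) but passed after the correction, at 1.4 ± 0.15 (adjusted p = 0.0017). The widely expressed isoform Cox6a1 fell by 0.32 after the correction. Cox4i2, the isoform induced by low oxygen in lung, read -0.58 and -0.26 in control and 0.23 and 0.00 with LPS, and its corrected difference of 0.29 did not pass. Cox7b2 and Cox8b were not well above background on any array and Cox8c only on control replicate 1.

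Complex V had the lowest median. As fitted, 4 of its 17 members fell, with a median of -0.57, and 11 fell after the correction, with a median of -0.54. Atp5j2, a small membrane subunit, read 7.63 and 7.53 in control, 6.47 and 6.46 with LPS, 7.24 and 7.21 with HF and 6.89 and 6.97 with LPS+HF. The 4 groups did not overlap, the LPS difference was -1.12 ± 0.13 (adjusted p = 0.0069), and its second probe gave -0.73. The c-ring subunit that translocates protons is made from 3 genes. Of these Atp5g1 fell by 0.82 (adjusted p = 0.02) and Atp5g3 by 0.57, and Atp5g2, uneven in control, had a corrected difference of -0.36 that did not pass. Atp5k, which helps dimerise the enzyme and whose promoter holds the NRF1 palindrome, fell by 0.76. The catalytic beta subunit Atp5b and the central stalk subunit Atp5c1 fell after the correction, by 0.46 and 0.60, but the second probe of Atp5c1 gave 0.00 as fitted where the first gave -0.88.

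**Figure D3:**
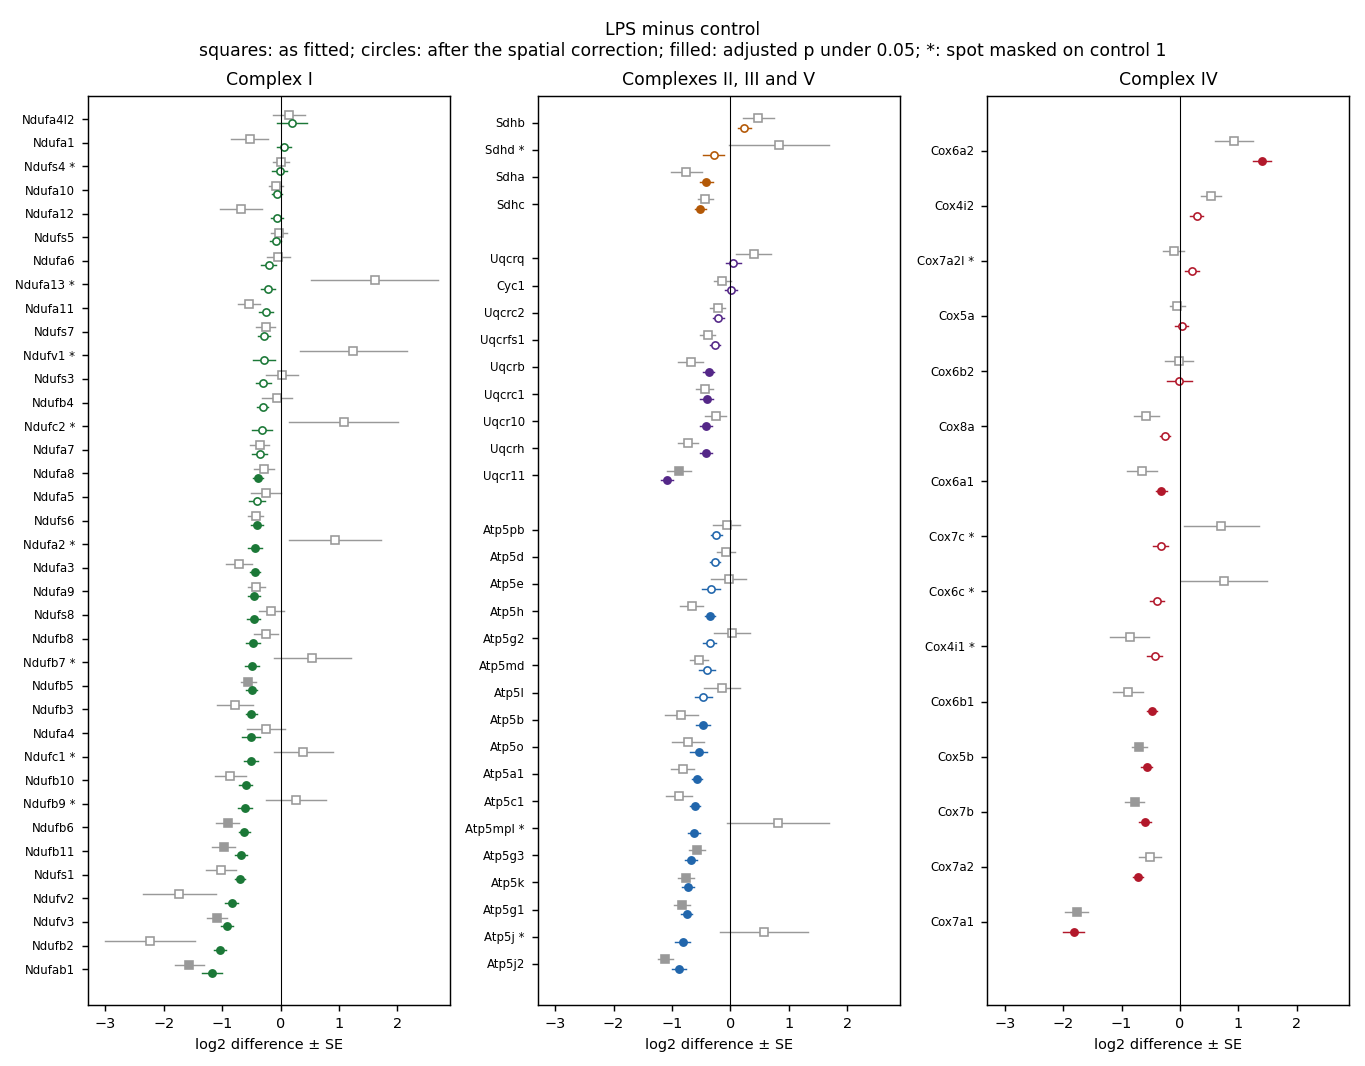
LPS minus control (log2 difference ± SE, horizontal axis) for the tested members but 1, by complex (vertical axis); squares are the values as fitted, circles those after the spatial correction, filled symbols have an adjusted p under 0.05, and asterisks mark spots dimmed on control replicate 1. After the correction 45 filled circles lie below 0 and 1, Cox6a2, above it, whereas as fitted 13 of the 15 asterisked members lie above 0.

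The LPS arrays lay wholly below both control arrays for 46 members and above them for 3, where 33.1% and 24.1% of all genes did so. Against control replicate 2 alone, 74 members were below and 5 above, beside 48.5% and 38.3% of all genes. The 5 above were Cox4i2, Cox6a2, Cox6b2, Cox7a2l and Sdhb. With only the control and LPS arrays in the fit no member passed, where 0.298% of all genes did. In that fit 17 members, 20.5%, had an unadjusted p under 0.05 (limma), beside 17.3% of all genes. Under quantile normalization all genes had a median of 0.04 in place of -0.08, and the members one of -0.15 in place of -0.39; 4 members, Cox7a1, Ndufab1, Atp5j2 and Ndufv3, fell, where 10.1% of all genes passed.

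With HF alone, Cox6a2 was lower than in control, and as fitted no other member passed. Cox6a2 fell by 2.71 ± 0.33 on the log2 scale, 6.56-fold, as fitted (adjusted p = 0.032), where 0.739% of all genes fell and 0.142% rose. Both HF arrays were below every control and LPS array. The members' median was -0.10, against -0.07 over all genes, and it turned to 0.07 under quantile normalization. After the correction 7 members fell, where 5.86% of all genes did, among them Cox6a2 by 2.32 (adjusted p = 0.0021), Cox6c by 0.59 (with control replicate 1 dropped for it), Cox7b by 0.45 and Atp5c1 by 0.42, whose second probe differed by 0.19 as fitted, opposite to the first. Without control replicate 1 only Cox6a2 passed, at -2.23 (adjusted p = 0.025), where 1.64% of all genes fell. It did not pass with only the control and HF arrays in the fit, where 0 genes of all passed. In that fit 4 members, 4.82%, had an unadjusted p under 0.05 (limma), beside 7.64% of all genes.

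The question of the study, what HF did in LPS-stimulated cells, turns for these genes on LPS+HF against LPS, a comparison that does not involve the uneven control array except through the shared error. As fitted 1 member fell and none rose, where 3.26% of all genes fell and 2.99% rose. The member that fell was again Cox6a2, by 3.22 ± 0.33, 9.33-fold (adjusted p = 0.011), and both LPS+HF arrays were below both LPS arrays by more than the spread within either pair. The median over all members was 0.17, against -0.07 over all genes, and by complex it was 0.19 in I, 0.26 in II, 0.20 in III, -0.11 in IV and 0.22 in V.

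With the error estimated after the spatial correction, 18 of the 83 members rose and 4 fell, where 15.2% and 14.2% of all genes did. Rises outnumbered falls more among the members than among all genes, and no test compared these shares. With only the LPS and LPS+HF arrays in the fit the counts were 17 and 5, where 15.9% and 17.1% of all genes did. Of the 18, complex I held 8, complex II 1, and complexes III, IV and V 3 each. Ndufs1, at 4.90 and 4.88 with LPS and 5.58 and 5.57 with LPS+HF, rose by 0.64 (adjusted p = 0.0053). Ndufv3 rose by 0.65, Ndufab1 by 0.68, Ndufa3 by 0.56, Uqcr11 by 0.56, Cox7a2 by 0.54 and Atp5a1, the catalytic core's alpha subunit, by 0.52. The 4 that fell were Cox6a2, Cox4i2 by 0.51, Uqcrq, a complex III subunit, by 0.50 and Sdhb by 0.45. Sdhb read 7.66 and 7.62 with LPS and 7.22 and 7.21 with LPS+HF, and both of its probes were lower. Of the 22 members with several kept probes, all probes of a gene had 1 sign for 18 in this comparison and for 16 in LPS minus control. The arrays with LPS+HF lay wholly above those with LPS for 50 members and below them for 23, where 32.7% and 41.2% of all genes did so.

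**Figure D4:**
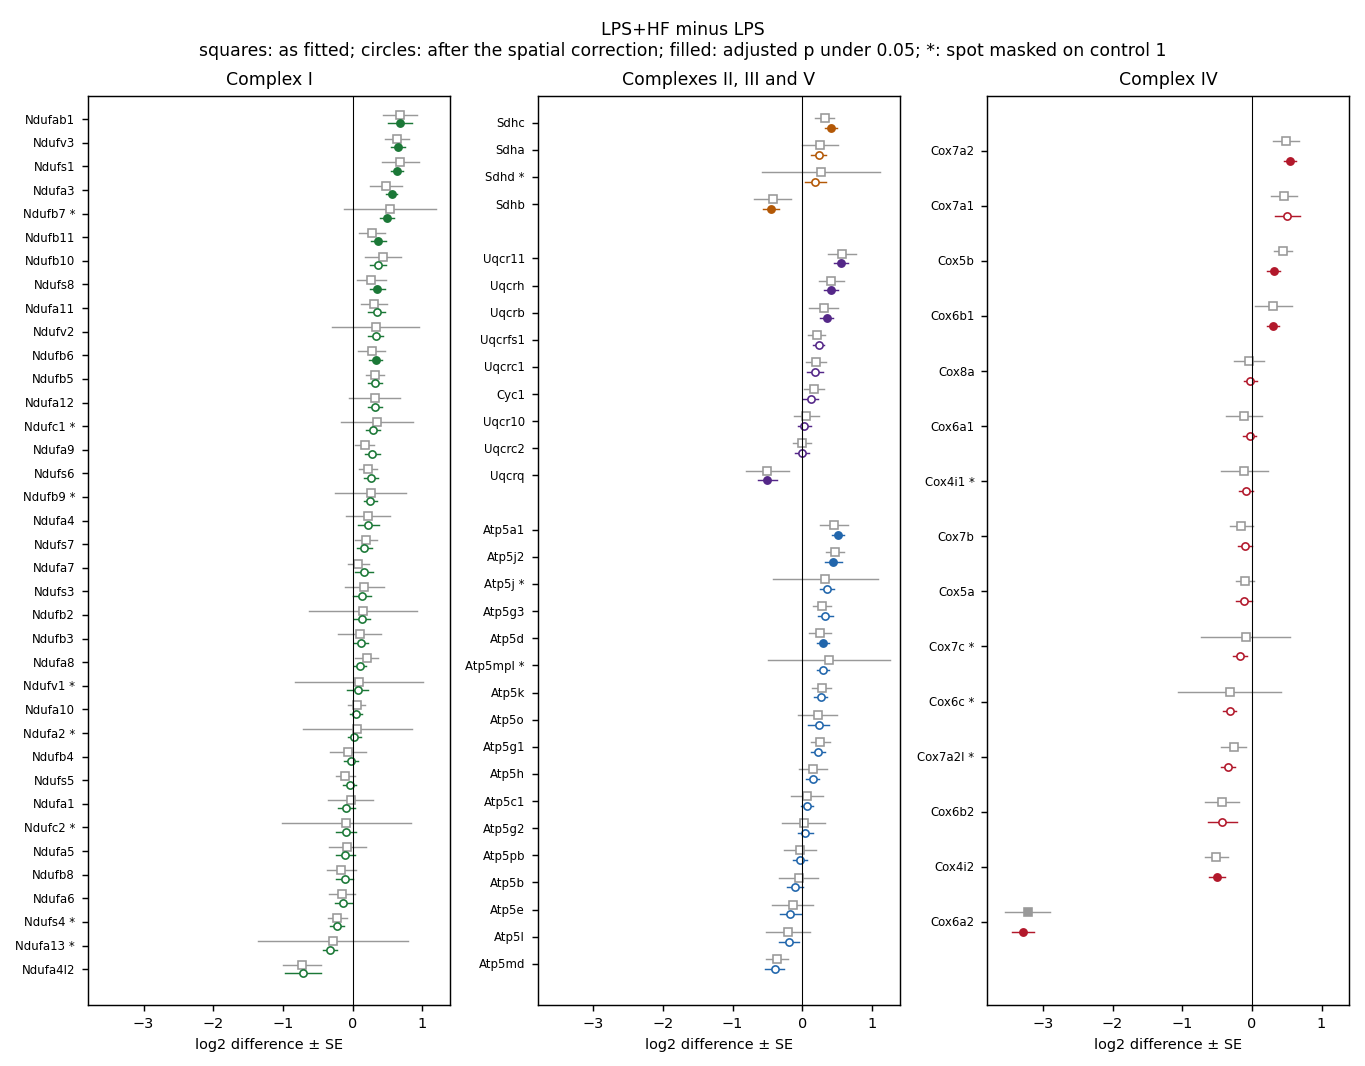
LPS+HF minus LPS (log2 difference ± SE, horizontal axis) for the tested members but 1, by complex (vertical axis); squares are the values as fitted, circles those after the spatial correction, and filled symbols have an adjusted p under 0.05. Cox6a2 lies far to the left at -3.22, and the others lie between -0.73 and 0.69 as fitted, with 18 filled circles above 0.

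This comparison and that of LPS with control share the LPS arrays, so a low value there lowers the one and raises the other, and their values are only set side by side. Ndufs1 differed by -0.70 with LPS and by 0.64 with HF added, Ndufv3 by -0.91 and 0.65, Ndufab1 by -1.17 and 0.68, Uqcr11 by -1.08 and 0.56, and Atp5j2 by -0.88 and 0.44, all after the correction. Measured against control replicate 2 alone, the LPS+HF arrays were below it for 74 members and above it for 6, where 50.5% and 35.2% of all genes did so. The HF arrays, without LPS, were also below it for 55 members and above it for 13. For HF the share of all genes was not computed, so these 2 counts cannot be read as particular to the members.

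In the presence of HF, no member passed the test for LPS. None of the 83 passed in LPS+HF minus HF by limma, where 1.28% of all genes did. Of the members 2, Atp5g1 and Cox7a1, had an unadjusted p under 0.05. That is 2.41% of the members, beside 9.36% of all genes. After the correction also none passed, where 5.1% of all genes did. An unadjusted p under 0.05 was then found for 14 members, 16.9%, beside 19.4% of all genes. The median was -0.14, against -0.08 over all genes, and the LPS+HF arrays lay wholly below the HF arrays for 57 members and above them for 2, Cox6a2 and Sdhb, where 35.2% and 18.2% of all genes did so. The interaction, which tests whether the LPS difference was altered by HF, had a median of 0.28 over the members against 0.02 over all genes. No member passed it as fitted (limma), where 0.0534% of all genes did. An unadjusted p under 0.05 was found for 8 members, 9.64%, beside 11.6% of all genes. After the correction Ndufs1 and Cox7a2 passed, 2 of 83 members, where 3.66% of all genes did, so the members' share was not above the background. Their values were 0.68 and 0.64, and both calls were lost when the correction was combined with the replicate block or with quantile normalization. Without control replicate 1, which leaves a single control array, the values for Ndufs1 and Cox7a2 were 0.54 and 0.66. For Cox6a2 the interaction was -0.51 ± 0.47 as fitted (adjusted p = 0.68) and -0.96 after the correction (adjusted p = 0.067), so its fall with HF was not shown to differ between cells with and without LPS.

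**Figure D5:**
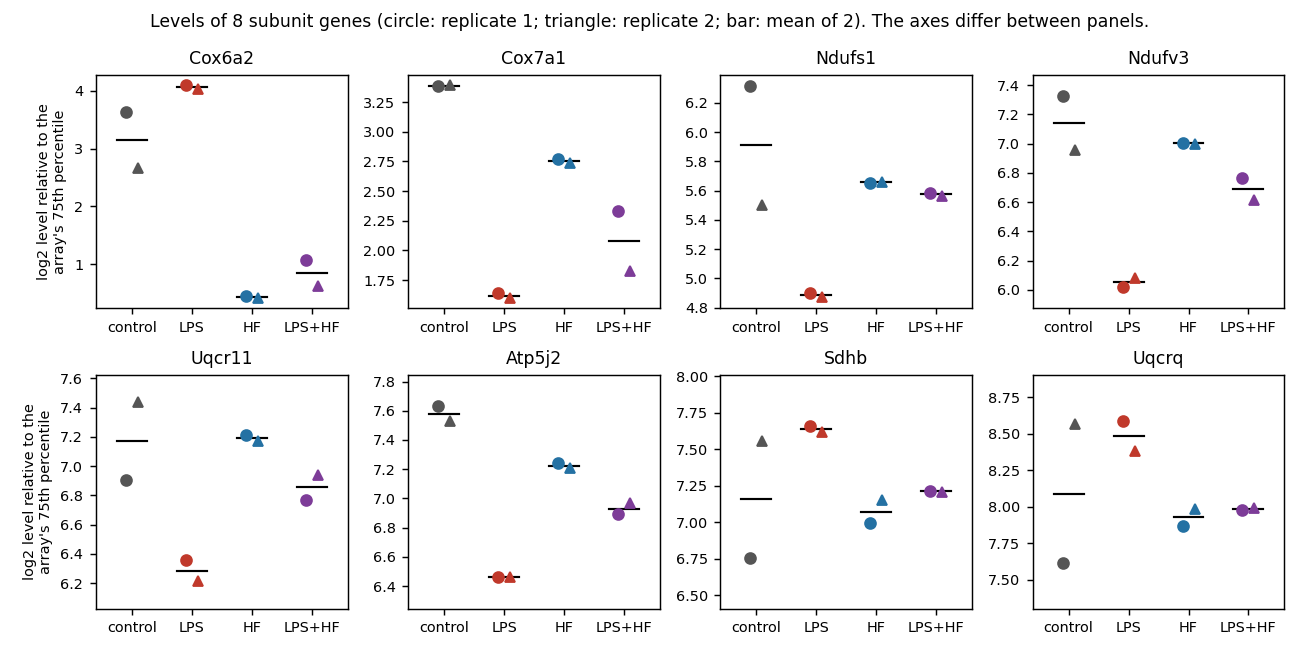
Level (log2 relative to the array's 75th percentile, vertical axis) of 8 members in the 4 groups (horizontal axis); circles are replicate 1, triangles replicate 2, bars the mean of 2, and the axes differ between panels. Cox6a2 is lowest in both groups with HF, Cox7a1, Ndufs1, Ndufv3, Uqcr11 and Atp5j2 are lowest with LPS, and Sdhb and Uqcrq are lower in both groups with HF than with LPS alone.

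Other genes of the pathway were taken from lists made by role. Of 45 tested assembly factors, 2 fell with LPS as fitted, with a median of -0.05, where 6.34% of all genes fell and 4.8% rose: Higd1a, linked to complex IV assembly, by 1.30 (adjusted p = 0.0049) and Cox20, a chaperone of a complex IV core subunit, by 1.1. Both rose with HF added, where 2.99% of all genes rose and 3.26% fell, Higd1a by 0.65 (adjusted p = 0.046) and Cox20 by 1.15 (adjusted p = 0.037). Of 17 regulators of mitochondrial gene expression none passed with LPS, with a median of -0.07, and with HF added Tfb2m, a mitochondrial transcription factor, rose by 0.81 (adjusted p = 0.045). Among 27 electron carriers and other inner membrane proteins 5 fell and 2 rose with LPS, with a median of -0.19. The largest of these were Pdss1 and Coq4, which fell by 1.16 and 0.93, and Coq8a and Gpd2, which rose by 2.05 and 0.99. Pdss1, Coq4 and Coq8a serve ubiquinone synthesis, and Gpd2 passes electrons from glycerol 3-phosphate to ubiquinone. Of 18 citric acid cycle enzymes Suclg1 fell by 0.69 and Ogdh rose by 0.70, and of 29 proteins of the small mitochondrial ribosomal subunit Mrps21 fell by 1.19. As fitted, no other gene of these lists passed when HF was added to LPS, and none passed with HF alone or with LPS in the presence of HF.

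After the spatial correction more genes of these lists passed, as did more of all genes. With LPS 9 assembly factors fell and 4 rose, 7 regulators fell and 1 rose, 9 carriers and inner membrane proteins fell and 2 rose, 6 cycle enzymes fell and 2 rose, and 5 ribosomal proteins fell and none rose, where 16.6% of all genes fell and 12.9% rose. With HF added to LPS, 7 assembly factors rose and 5 fell, 8 regulators rose and 2 fell, 3 carriers and inner membrane proteins rose and 3 fell, 3 cycle enzymes rose and none fell, and 5 ribosomal proteins rose and none fell, where 15.2% of all genes rose and 14.2% fell. Among the regulators that rose, and named here after their values were seen, were Nrf1, by 1.34 (adjusted p = 0.0022), and Gabpa, the DNA-binding subunit of GABP, by 0.60 (adjusted p = 0.0052). With HF alone 2 genes of these lists passed, the assembly factor Coa6 at -0.48 (adjusted p = 0.043) and the ribosomal protein Mrps28 at -0.47 (adjusted p = 0.032), where 5.86% of all genes fell. With LPS in the presence of HF 1 passed, the assembly factor Sdhaf1 at 0.59 (adjusted p = 0.017), where 5.1% of all genes passed. These 3 were also named after their values were seen. No probe of the subunits encoded in mitochondrial DNA was tested here.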

How the data were processed

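Gene expression was measured on 8 Agilent 1-colour arrays of BV-2 RNA, 2 for each of 4 groups. Per the file headers, the deposited scanner files hold background-corrected, processed spot intensities made with Agilent Feature Extraction 11.5.1.1 (protocol GE1_1200_Jun14). The deposited series matrix holds the authors' log2 values, which matched the levels recomputed here once each probe was centred on its median (99.9% of probes within 0.01), so its scale is log2 after scaling to the 75th percentile; it was used as an alternative.

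From the intensities, log2 values minus each array's 75th percentile were computed over 55681 non-control probes. Symbols came from transcript identifiers matched to RefSeq (GRCm38.p6), which named 28026 probes (50.3%). Probes were kept where a group had both of its arrays well above background, the brightest per gene was used, and a gene passed at a Benjamini-Hochberg adjusted p under 0.05 in limma 3.58.1 (R 4.3.3), fitted to all 8 arrays and 22460 genes without a replicate block. Adjusted p-values are limma's, two-sided, and the values after ± are its standard errors. The spatial correction used a moving median over 30 rows and 15 columns of spots. Same-numbered arrays were not treated as pairs. Correlations of their deviations, taken before the spatial correction, ran from -0.09 to 0.27. The highest was for control and HF, and the uneven control replicate 1 enters every correlation with control. These values cannot settle whether the samples were paired. Probe intensity over background, and 2 arrays a group, limit the precision. The script was tested on simulated data.

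The genes named were, in each comparison, the members that passed (up to 8 rises and 8 falls), core subunits and isoform genes, and up to 4 passed genes of each other list. The members and lists were chosen with earlier results of these data known. Other normalizations, filters and left-out arrays were tried as alternatives. For 1 member the values are not reported here.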

Additional observations from a re-analysis of the deposited data

Results flagged for a closer look

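After the spatial correction, the LPS difference was altered by HF for 2 members, by a test of the interaction itself (limma), and 2 of 83 is below the 3.66% of all genes that passed. For Ndufs1, an iron-sulfur subunit of complex I, the interaction was 0.68 (log2; adjusted p = 0.048): the corrected LPS difference was -0.70 without HF, and the LPS+HF arrays, at 5.58 and 5.57, lay close to the HF arrays, at 5.66 and 5.66. For Cox7a2, the widely expressed isoform of its complex IV subunit, it was 0.64 (adjusted p = 0.045). As fitted, without the correction, the values were 0.94 and 0.41, and neither passed (adjusted p = 0.42 and 0.6). Combined with the replicate block the correction left neither call (adjusted p = 0.087 for Ndufs1 and 0.083 for Cox7a2), nor did it with quantile normalization (adjusted p = 0.053 and 0.063). Without the uneven control replicate 1 the values were 0.54 and 0.66 and neither passed (adjusted p = 0.12 and 0.099).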

How the results depend on the processing

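The 15 calls of the comparisons as fitted were recomputed in 24 other settings, 360 values in all: 217 kept direction and call, 142 lost the call, and 1 turned, Ndufb11 in LPS minus control at 0.21 with normexp and quantile normalization. Of 4993 values of 42 named members, 329 changed sign with no call on either side and 234 newly passed. In LPS minus control, where 13 passed, the count was 0 with array weights or with only the arrays compared, 2 without the filter on dim probes, 7 with normexp and quantile normalization, 4 with quantile normalization, 46 with the spatial correction, 28 with that and quantile normalization, 36 with that and the replicate block, 35 without both marked arrays, and 0 to 59 without 1 array. It was 0 without either LPS array, 4 without any 1 array with HF, and 59 without control replicate 2, which leaves the uneven array as the only control. The median of -0.39 became -0.25 with normexp and quantile normalization, -0.15 with quantile normalization, -0.19 with that and without control replicate 1, -0.18 with the spatial correction and quantile normalization, and -0.42 to -0.32 without 1 array. Cox7a2l turned to 0.42 with the spatial correction and quantile normalization. In HF minus control, the 1 call was lost (0) with array weights, without the filter, with normexp and quantile normalization, with only the arrays compared, and without both marked arrays. It became 7 with the spatial correction, 3 with that and quantile normalization, 2 with that and the replicate block, and 0 to 46 without 1 array. The median of -0.10 became 0.065 with quantile normalization, -0.0032 with that and without control replicate 1, -0.14 with the spatial correction, 0.024 with that and quantile normalization, and -0.17 to -0.10 without 1 array. Cox6c turned to -0.59 with the spatial correction. In LPS+HF minus LPS, the count of 1 became 26 with array weights, 22 with only the arrays compared, with the spatial correction or without both marked arrays, 17 with quantile normalization without control replicate 1, 21 with the spatial correction and quantile normalization, 14 with the spatial correction and the replicate block, and 0 to 20 without 1 array: 0 without any of its own 4 arrays and 20 without either control array. In LPS+HF minus HF the median of -0.14 became -0.082 with normexp and quantile normalization, -0.054 with quantile normalization with or without control replicate 1, and -0.059 with the spatial correction and quantile normalization. For the interaction, 2 passed with the spatial correction, 0 with that and the replicate block or quantile normalization, and 0 to 46 without 1 array. Its median of 0.28 became 0.16, 0.13, 0.14 and 0.14 in the same order of settings, and 0.23 to 0.32 without 1 array.

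The replicate block treats same-numbered arrays as pairs. It left 7 of 13 calls in LPS minus control, 0 of 1 in HF minus control and 1 of 1 in LPS+HF minus LPS. The cause of these changes was not tested. Settings that combine quantile normalization with the spatial correction or with a left-out array were chosen after seeing the data. With 2 arrays a group, a difference that did not pass is not shown to be absent, and dim Ndufa4l2 has only a bound on 2 arrays.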
